A study of Mus musculus with 12 samples.

Results

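Cell cycle and DNA replication genes were followed in whole mouse embryos that lack normal function of the ribosomal protein RPL10A/uL1. The set held 51 genes named by symbol, of which 20 were listed as G1/S genes and 31 as G2/M genes. These are names of lists, and single proteins of a list may act in another phase. Each was matched to 1 transcript of the GENCODE mouse annotation (GRCm38), and the 51 transcripts stood among 22467 listed and 12576 tested. All 51 passed the filter on low counts, which required more than 0.75 CPM (the count scaled to a fixed library total) in at least 3 libraries of ribosome-protected fragments (RPF), so none was lost to low signal. The embryos were Rpl10a +/+ (wild-type, 3 embryos) or Rpl10a LOF/LOF (3 embryos) and were harvested at E8.5. The LOF allele was made by CRISPR in C57BL/6 mice and encodes RPL10A with an extended N-terminus; it is a hypomorph, not a null, and every cell of the embryo carries it. Each embryo was lysed alone, and its lysate gave both an RPF library, from ribosome profiling, and an RNA library, from RNA-seq, so that 12 libraries were analysed.

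Per library, 7041357 to 10863499 RPF counts and 9132521 to 26561843 RNA counts were assigned to transcripts. The targeted gene, Rpl10a, had a lower RPF level in every LOF/LOF library than in every wild-type library (log2 fold change −0.64 ± 0.07 SE, n = 3 embryos per genotype, edgeR FDR 0.00689). The LOF/LOF embryos were not alike in other respects. Summed Y-linked RPF was 154 CPM in LOF/LOF replicate 2, 9.09 CPM in replicate 1 and 0.384 CPM in replicate 3, against 163 to 183 CPM in the wild-type embryos, so that sex is unevenly spread over the genotypes. The 13 visceral endoderm markers summed to 6570.1 to 8723 CPM of RPF in wild-type and 2396 to 5015 CPM in LOF/LOF embryos, and the 10 primitive erythroid markers to 848 to 2852 CPM and 3508 to 5876 CPM. In RPF these 2 lists did not overlap between genotypes, and their part in the results below was not tested. The 8 trophoblast markers, of which Tpbpa, Gcm1 and Prl2c2 were under 1 CPM in every RPF library, and the 6 decidual markers overlapped (58.4 to 72.1 against 42.7 to 119 CPM and 211 to 389 against 189.9 to 425 CPM). The libraries are bulk: a lower share of dividing cells and less RNA of a gene per dividing cell cannot be told apart in them.

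The cell cycle is driven by cyclin-dependent kinases. Late in G1, E2F transcription factors switch on the genes for origin licensing, nucleotide supply and cyclin E, and later the B-MYB and FOXM1 complexes switch on the genes for mitosis. When p53 is active, it raises the Cdk inhibitor p21 (Cdkn1a), and the DREAM repressor complex then shuts down both waves, binding the first through E2F sites and the second through a short element called CHR. A fall of these genes is therefore a usual sign that p53 has slowed division. Embryos at this stage divide fast in nearly every tissue. The comparison of wild-type with LOF/LOF embryos asked whether either wave had moved at the level of RNA, of ribosome occupancy (RPF), or of RPF relative to RNA (translation efficiency, TE), beside the p53 targets of the same embryos.

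The elements that set the 2 waves apart are shown here because the results are given for the waves separately. Promoters were RefSeq windows (GRCm38.p6) of 250 bases before to 50 after the start, kept when the RefSeq start lay within 500 bases of the GENCODE start. Of the 51 genes, 42 had such a window, as did 9366 tested transcripts. Both strands were searched for CHR (TTTGAA or TTCGAA), for the CCAAT box (CCAAT) and for E2F sites (TTTCCCGC, TTTCGCGC, TTTGCCGC or TTTGGCGC); the letters of CHR, CCAAT and E2F matches were counted separately, so neighbouring matches may overlap. Capitals mark the match in the 30-base windows below, which read 5′ to 3′ on the strand of the gene. CHR matches of G2/M genes, for the cyclin B2, Cdk1, Polo-like kinase, Cdc20, checkpoint kinase and Ckap2 promoters, were:
Ccnb2, chr9:70421533-70421562, minus strand: agcggcgcggtaTTTGAAtcgcggaccggg
Cdk1, chr10:69352910-69352939, minus strand: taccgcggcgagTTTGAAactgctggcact
Plk1, chr7:122159453-122159482, plus strand: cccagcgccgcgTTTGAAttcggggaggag
Cdc20, chr4:118437344-118437373, minus strand: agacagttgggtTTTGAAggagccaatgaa
Bub1, chr2:127831828-127831857, minus strand: ctgcgcggggaaTTCGAAtcgccggcggcc
Ckap2, chr8:22185903-22185932, minus strand: gctttgttcgatTTTGAAatttctcgccgg

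E2F matches of G1/S genes were found in promoters of the replicative helicase, of the licensing factors Cdc6 and Cdt1 and of the phosphatase Cdc25a, and in the antisense direction they read as the reverse complement:
Mcm6, chr1:128359734-128359763, minus strand: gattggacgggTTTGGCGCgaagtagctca
Mcm5, chr8:75109349-75109378, plus strand: caagaactttcGCGCCAAAacgtccagcct
Cdc6, chr11:98908002-98908031, plus strand: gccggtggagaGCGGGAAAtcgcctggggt
Cdt1, chr8:122568035-122568064, plus strand: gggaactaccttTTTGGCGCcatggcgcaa
Cdc25a, chr9:109875501-109875530, plus strand: ggtgaattccgTTTGGCGCcaactaggaaa

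Gtse1, the gene that changed most among the 51, had 3 CCAAT matches and no CHR match in its window, and the match nearest its start is shown for that reason:
Gtse1, chr15:85859693-85859722, plus strand: tgtttaaacaggCCAATcggcggccggcgg

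The waves differed in these letters. CHR was present in 19 of 25 G2/M promoters (76%) and 2 of 17 G1/S promoters (11.8%), against 13.1% of all promoters. CCAAT was present in 22 of 25 G2/M promoters (88%) and 10 of 17 G1/S promoters (58.8%), against 39.0% of all, and both CHR and CCAAT in 18 of 25 G2/M promoters (72%), against 5.70% of all. E2F matches stood in 7 of 17 G1/S promoters (41.2%) and in 1 of 25 G2/M promoters, that of Cdk1, against 4.27% of all. A further list of 32 G2/M genes outside the 51 had CHR in 20 of 26 promoters (76.9%). A match is a description of the letters and not evidence of binding in these embryos.

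In wild-type embryos most of the 51 genes had RPF levels above the typical transcript. The median RPF level per length was 103 CPM per kb of counted coding sequence over the G1/S genes and 98.5 over the G2/M genes, against 13.9 over all tested transcripts. The highest RPF level of the set belonged to Rrm2, the regulated subunit of ribonucleotide reductase (852 CPM per kb), followed by the helicase subunit Mcm7 (499), the mitotic kinase Cdk1 (480.1), its partner Ccnb1 (428), the large reductase subunit Rrm1 (389.9) and topoisomerase II, Top2a (388). In the other roles the highest were the checkpoint protein Mad2l1 (300.3), the kinesin Kif20a (186), the kinase Plk1 (183), the midzone protein Prc1 (131) and, among transcription factors, the repressor E2f7 (19.3).

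Transcription factors had RPF levels that were low for the set, although Foxm1, Mybl2 and E2f7 lay slightly above the median of all tested transcripts (13.9 CPM per kb). E2f1, the founding activator of the G1/S wave, had 3.55 CPM per kb of RPF and the lowest RPF count of the set, 25 in 1 library, while Foxm1, of the G2/M genes, and Mybl2, of the G1/S genes, had 14.2 and 18.2. Cdc25b (8.23) and Pcna (16.5) lay in the same range. The Pcna level is uncertain, because 75.6% of the 30-base stretches of its coding sequence also occur in the pseudogene Pcna-ps2. Relative to RNA per kb of transcript, and to the median tested transcript, the 5 transcription factors had a median RPF/RNA of −1.17 on the log2 scale and E2f1 −2.30, whereas Mad2l1 stood at 2.97, above 99.6% of transcripts, Cdk1 at 2.60 and the thymidylate synthase Tyms at 1.78. RNA levels were scaled to the whole annotated transcript, and those of Mad2l1 and Cdk1 carry 3′UTRs of 6802 and 3352 nucleotides, against a median of 1026 over tested transcripts; whether the embryos use the annotated 3′ ends was not tested. The 5′UTR GC content had medians of 62.3% for G1/S genes, 63.2% for G2/M genes and 64.8% for all tested transcripts.

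**Figure D1:**
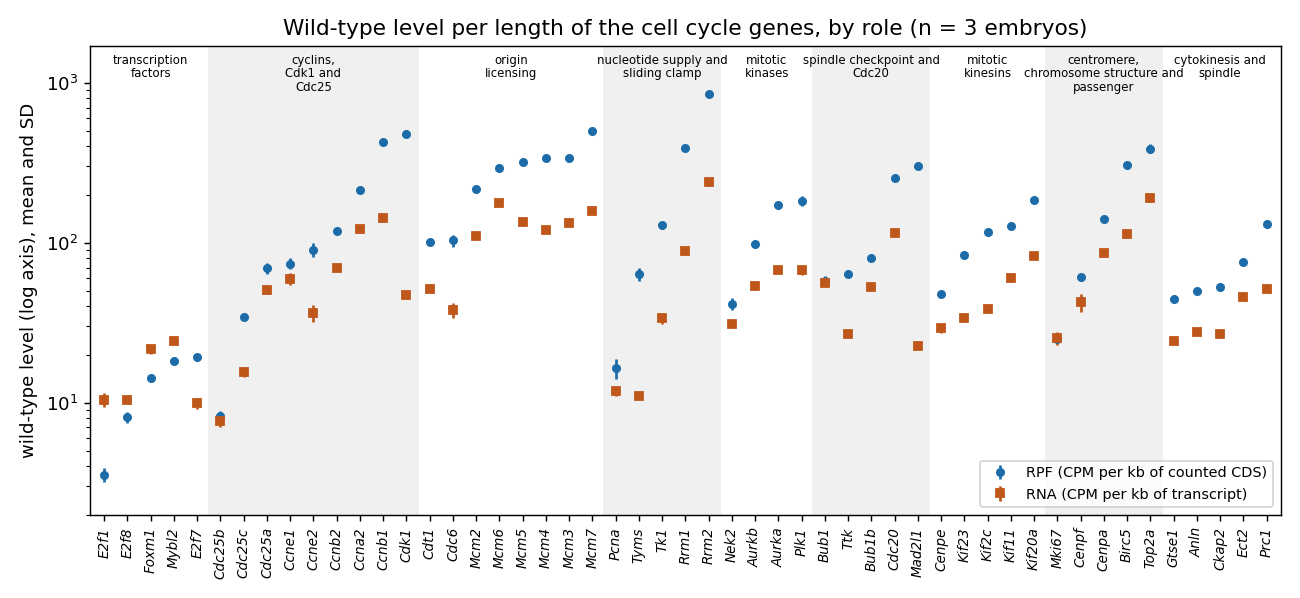
Wild-type level of each of the 51 genes by role (mean and SD of 3 embryos, log axis), as RPF in CPM per kb of counted coding sequence and RNA in CPM per kb of transcript. Rrm2 (852 CPM per kb of RPF) and Mcm7 (499) lead their roles. The transcription factors run from E2f1 (3.55) to E2f7 (19.3), a range low for the set that Cdc25b (8.23) and Pcna (16.5) share. The Pcna level is uncertain, because much of its coding sequence is shared with a pseudogene.

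Most of the 51 genes differed by little between LOF/LOF and wild-type embryos: the log2 fold change was within 0.1 of 0 for 38 genes in RPF and 39 in RNA. Over the 20 G1/S genes the median log2 fold change was −0.06 in RPF and −0.04 in RNA, and over the 31 G2/M genes 0.02 in RPF and 0.00 in RNA, against 0.00 in both measures over all tested transcripts. Of the 51 genes, Gtse1 rose in RPF and in RNA, and Aurkb fell in RNA (edgeR, FDR under 0.1 over all transcripts). No other member passed in edgeR, and none passed for TE. With limma-voom and sva, which called 10.4% of all tested transcripts in RPF, 5 members were called in RPF: Gtse1, Ckap2 and Mki67 higher, and Ccne1 and Rrm1 lower.

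By edgeR in RPF, 1 of 51 genes was called higher, where 1.05% of all tested transcripts were called higher, and 0 were called lower, where 1.15% were. In RNA, 1 of 51 was called higher and 1 lower, where 1.77% and 3.25% of all were. At an unadjusted p under 0.05, 4 of 51 genes passed in RPF (7.84%, against 13.7% of all), 7 in RNA (13.7%, against 17.0%) and 1 in TE (against 4.44%). In TE, edgeR called 0% of all tested transcripts, limma-voom called 0 transcripts and DESeq2 called 4, none of them a member. The 3 wild-type and 3 LOF/LOF embryos did not overlap for 7 of 51 genes in RPF (13.7%, against 19.4% of all), 12 in RNA (23.5%, against 22.8%) and 2 in TE (against 12.1%). Of these shares at an unadjusted p and without overlap, that of RNA values without overlap was near the background and the others lay below it, differences that were not tested.

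For most of the 51 genes the intervals set narrow limits on what was missed. The 95% interval of the fold change lay wholly within 1.5-fold in either direction for 47 of 51 genes in RPF (92.2%, against 67.0% of all tested transcripts), for all 51 in RNA (82.4% of all) and for 47 in TE (92.2%, against 64.7%). By wave, the RPF interval was within this bound for 17 of 20 G1/S and 30 of 31 G2/M genes. The genes whose RPF interval crossed it were Pcna, Ccne1 and E2f8, on the low side, and Gtse1, on the high side.

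**Figure D2:**
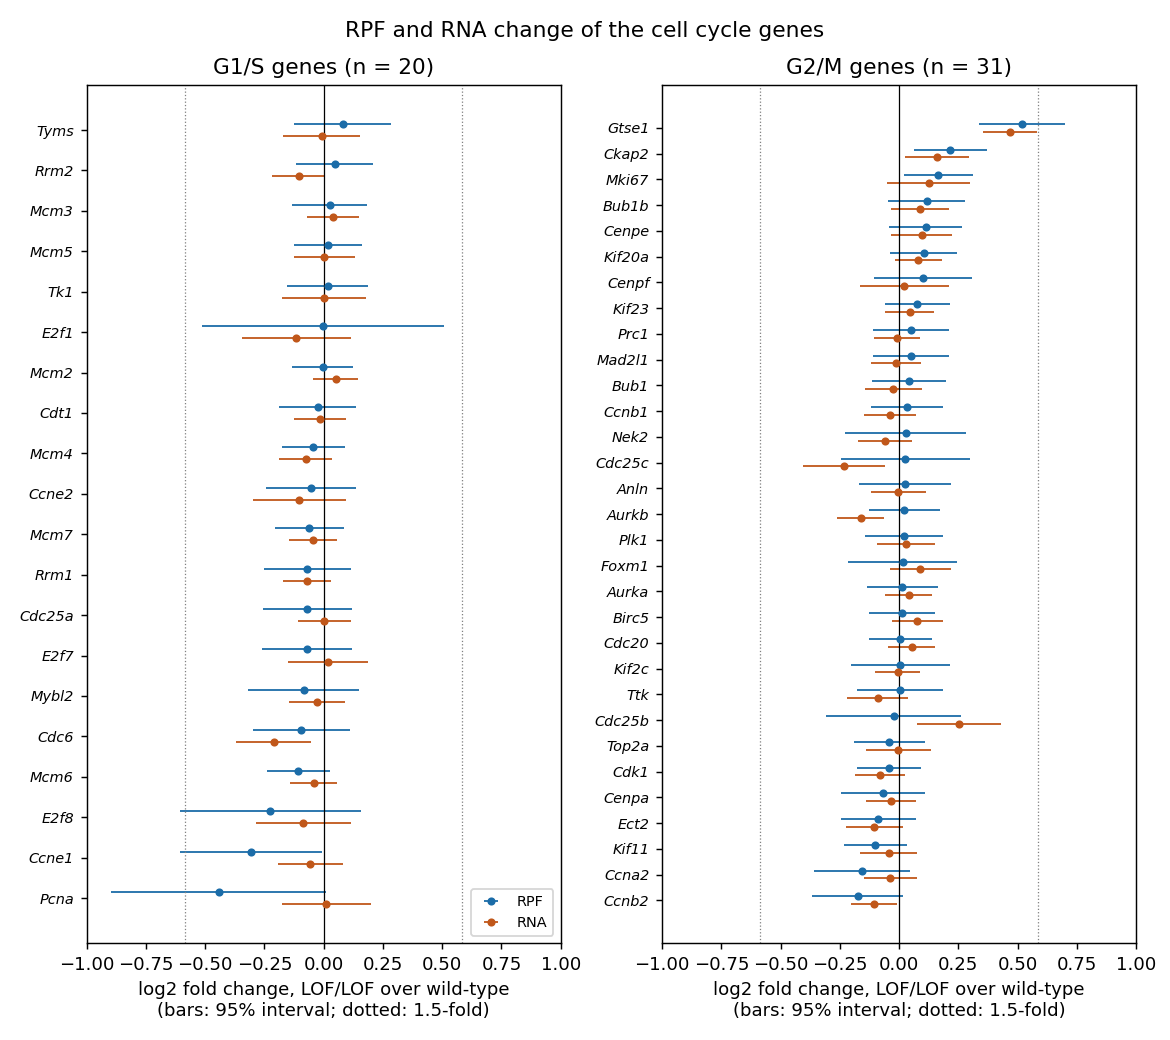
Log2 fold change of each gene in LOF/LOF over wild-type embryos in RPF and RNA, with its 95% interval (edgeR, n = 3 embryos per genotype), for the 20 G1/S genes and the 31 G2/M genes; dotted lines mark 1.5-fold. Nearly all points sit close to 0, with Gtse1 at 0.52 in RPF and 0.47 in RNA and Pcna at −0.44 in RPF.

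Gtse1 (ENSMUST00000170629.2, 12 exons, chr15:85859745-85876530, plus strand, GRCm38) encodes a microtubule-associated protein of G2 and mitosis that restrains p53, and the gene is itself known to be induced by p53. Its RPF level was 100.2, 96.2 and 93.7 CPM in wild-type replicates 1 to 3 and 150.1, 123 and 143 CPM in LOF/LOF replicates 1 to 3. Every LOF/LOF embryo was above every wild-type embryo, the lowest being LOF/LOF replicate 2. The RPF difference was 1.43-fold (log2 0.52 ± 0.08 SE, edgeR FDR 0.0253). In RNA the levels were 64.9, 64.7 and 62.6 CPM in wild-type and 92.9, 86.5 and 86.2 CPM in LOF/LOF embryos, again with no overlap (1.38-fold, log2 0.47 ± 0.05 SE, edgeR FDR 0.00211). The difference in TE was 0.05 (95% interval −0.16 to 0.26). The RNA call held in each of the 14 alternative fits; the RPF call was lost in 4 of them, with edgeR FDR 0.257 when Y-linked level was a covariate and 0.133, 0.168 and 0.105 without wild-type replicate 1, wild-type replicate 2 or LOF/LOF replicate 3. Over the 14 fits the log2 fold change of Gtse1 ran from 0.39 to 0.60 in RPF.

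Aurkb (ENSMUST00000108666.7, 9 exons, chr11:69045647-69051664, plus strand), the kinase of the chromosomal passenger complex, had 101, 98.3 and 96.5 CPM of RNA in wild-type and 88.9, 87.1 and 88.6 CPM in LOF/LOF embryos. The groups did not overlap and the spread within each was narrow (log2 fold change −0.16 ± 0.04 SE, edgeR FDR 0.0934). Its RPF was 99.8, 96.9 and 92.4 CPM in wild-type and 100.0, 98.3 and 95.3 CPM in LOF/LOF embryos, which overlapped (0.02 ± 0.07 SE). Its TE was the only one of the 51 with an unadjusted p under 0.05 by edgeR (0.18 ± 0.08 SE), a difference that did not pass adjustment. The RNA call was close to the threshold and was kept in 1 of 14 alternative fits; it was lost without any 1 of the 6 embryos, with FDR from 0.0915 to 0.524 over the 14 fits and log2 fold changes from −0.18 to −0.14.

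Among the other mitotic kinases, Plk1, which drives entry into and exit from mitosis, was the highest. Its RPF was 339.8, 329 and 296 CPM in wild-type and 343, 303 and 332 CPM in LOF/LOF embryos. The embryos of both genotypes were interleaved (log2 0.02 ± 0.07 SE, and 0.03 ± 0.05 SE in RNA). Aurka, which matures the spindle poles, and the centrosomal kinase Nek2 had RPF differences of 0.01 and 0.03.

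Of the cytokinesis and spindle genes, Ckap2, a spindle microtubule protein also known as p53-inducible (ENSMUST00000046916.8, chr8:22168160-22185819, minus strand), came nearest to Gtse1. Its RPF was 98.1, 104 and 105 CPM in wild-type and 121, 112 and 123 CPM in LOF/LOF embryos. Its RNA was 69.6, 68.5 and 71.5 CPM in wild-type and 84.5, 74.7 and 74.3 CPM in LOF/LOF embryos. The genotypes did not overlap in either measure, but neither difference passed the test (RPF 0.22 ± 0.07 SE, edgeR FDR 0.195; RNA 0.16 ± 0.06 SE, edgeR FDR 0.214). Without LOF/LOF replicate 2 its RPF was called higher (0.26, edgeR FDR 0.0404), as it was with limma-voom and sva. Prc1, which bundles the central spindle, had RPF of 236, 237 and 216 CPM in wild-type and 248, 219 and 248 CPM in LOF/LOF embryos (0.05 ± 0.07 SE). Ect2, the exchange factor that starts the cleavage furrow, had RPF of 209.6, 202 and 202 CPM in wild-type and 208, 177 and 193 CPM in LOF/LOF embryos, with overlap (−0.09 ± 0.07 SE; RNA −0.10 ± 0.05 SE). The contractile ring protein Anln had 0.03 in RPF and 0.00 in RNA.

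No gene of centromere and chromosome structure was called by edgeR. Mki67, the proliferation marker that coats mitotic chromosomes, had RPF of 242, 237 and 232 CPM in wild-type and 247, 278 and 272 CPM in LOF/LOF embryos. LOF/LOF embryos were all above wild-type ones, but the difference did not pass (0.17 ± 0.07 SE, edgeR FDR 0.298), and its RNA overlapped (0.12 ± 0.08 SE). With limma-voom and sva, Mki67 RPF was called higher (0.18, FDR 0.0245). Top2a, which untangles replicated DNA, had the highest RPF count of the 51 at 1833, 1820.0 and 1621 CPM in wild-type and 1716, 1636 and 1776 CPM in LOF/LOF embryos. These were interleaved (−0.04 ± 0.07 SE; RNA 0.00 ± 0.06 SE). The passenger subunit Birc5, the centromeric histone Cenpa and the kinetochore protein Cenpf had RPF differences of 0.01, −0.07 and 0.10.

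Mitotic kinesins and checkpoint genes were not called by edgeR either. Kif20a, needed for cytokinesis, had RPF of 480.5, 499 and 476 CPM in wild-type and 544, 487 and 533 CPM in LOF/LOF embryos, with LOF/LOF replicate 2 inside the wild-type range (0.10 ± 0.06 SE). Its RNA did not overlap, at 256 to 265 CPM in wild-type and 265 to 281 CPM in LOF/LOF embryos (0.08 ± 0.05 SE, edgeR FDR 0.407). The centromere kinesin Cenpe was higher in every LOF/LOF embryo (RPF 344, 352 and 355 against 362, 358 and 415 CPM) and Kif11, which separates the spindle poles, lower in every one (388, 408 and 387 against 367, 379.6 and 358 CPM). Neither passed (Cenpe 0.11 ± 0.07 SE, edgeR FDR 0.521; Kif11 −0.10 ± 0.06 SE, edgeR FDR 0.506). The RPF differences of the remaining kinesins Kif23, of the central spindle, and Kif2c, which trims kinetochore microtubules, were 0.08 and 0.00, with no overlap for Kif23. Mad2l1, which holds the checkpoint, had RPF of 170.0, 161 and 172 CPM in wild-type and 189, 165 and 168 CPM in LOF/LOF embryos, with overlap (0.05 ± 0.07 SE). The checkpoint kinases Bub1 and Ttk, their partner Bub1b and the APC/C activator Cdc20 had RPF differences of 0.04, 0.00, 0.12 and 0.01.

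Of the cyclins, Cdk1 and the Cdc25 phosphatases, none was called by edgeR over all 6 embryos. Cdk1 RPF was 408, 415 and 378 CPM in wild-type and 389, 386 and 390.1 CPM in LOF/LOF embryos, with the LOF/LOF embryos inside the wild-type range (−0.04 ± 0.06 SE; RNA −0.08 ± 0.05 SE). Ccnb1 had 0.03 ± 0.07 SE in RPF. Ccne1, cyclin E1, which opens S phase, had RPF of 80.4, 85.7 and 93.5 CPM in wild-type and 59.6, 88.8 and 61.2 CPM in LOF/LOF embryos (−0.31 ± 0.14 SE, edgeR FDR 0.353; with limma-voom and sva −0.24, FDR 0.0443). LOF/LOF replicates 1 and 3 were below every wild-type embryo, and replicate 2 was among them. Its RNA overlapped, at 114, 112 and 131 CPM and 115, 113 and 115 CPM (−0.06 ± 0.06 SE).

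The same split of LOF/LOF embryos in RPF was seen for Ccna2, Ccnb2 and E2f8, and with smaller differences for Mybl2 (−0.08) and Mcm2 (0.00). The opposite split, with LOF/LOF replicates 1 and 3 above every wild-type embryo and replicate 2 not, was seen for Rrm2, Mcm3, Cenpf, Ccnb1, Prc1, Kif20a and Bub1b. Ccna2, the cyclin of S phase and G2, had RPF of 245, 265 and 265 CPM in wild-type and 213, 269 and 213 CPM in LOF/LOF embryos (−0.16 ± 0.09 SE, edgeR FDR 0.495). Ccnb2 had 132, 139 and 136 CPM and 109.9, 137 and 113 CPM (−0.17 ± 0.09 SE, edgeR FDR 0.419). E2f8, a repressor of the E2F wave, had 18.8, 20.6 and 21.9 CPM and 14.1, 23.2 and 15.0 CPM (−0.22 ± 0.17 SE, edgeR FDR 0.615). In Ccna2, Ccnb2 and E2f8, LOF/LOF replicates 1 and 3 were low and replicate 2 lay within or above the wild-type range. RNA had no such split: it was 360.2, 355 and 366 CPM against 364, 359 and 331 CPM for Ccna2, and 109, 104 and 108 CPM against 99.0, 99.7 and 99.1 CPM for Ccnb2, and for E2f8 LOF/LOF replicate 1 alone was low (30.2 CPM, against 35.1 to 37.6 in the other 5 embryos). Without LOF/LOF replicate 2, RPF of Ccne1, Ccna2, Ccnb2 and E2f8 was called lower (log2 fold changes −0.52, −0.28, −0.28 and −0.48, edgeR FDR 0.00423, 0.0305, 0.0278 and 0.0416), and so many more transcripts passed at large that 11.6% of all tested were called in that fit. With Y-linked level as a covariate the values were −0.01, 0.03, −0.02 and 0.12. These genes were picked out after their values were seen. Replicate 2 was the LOF/LOF embryo with high Y-linked RPF (154 CPM) and with the highest visceral endoderm and erythroid sums of its genotype (5015 and 5876 CPM); with 1 such embryo, these cannot be told apart.

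None of the Cdc25 phosphatases, which activate the Cdks, passed in RNA. Cdc25b RNA was 22.5, 22.9 and 25.6 CPM in wild-type and 28.6, 28.6 and 27.6 CPM in LOF/LOF embryos (0.25 ± 0.08 SE, edgeR FDR 0.141). Cdc25c RNA was 31.2, 28.0 and 31.5 CPM in wild-type and 24.9, 25.8 and 26.4 CPM in LOF/LOF embryos (−0.23 ± 0.08 SE, edgeR FDR 0.164). Neither overlapped between genotypes. The RPF differences were −0.02 ± 0.13 SE for Cdc25b and 0.03 ± 0.12 SE for Cdc25c, with intervals that hold the RNA differences. The TE of Cdc25b was lower in every LOF/LOF embryo without passing (−0.28 ± 0.14 SE, edgeR FDR 1.00). The third, Cdc25a, of the G1/S wave, had −0.07 in RPF and 0.00 in RNA.

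**Figure D3:**
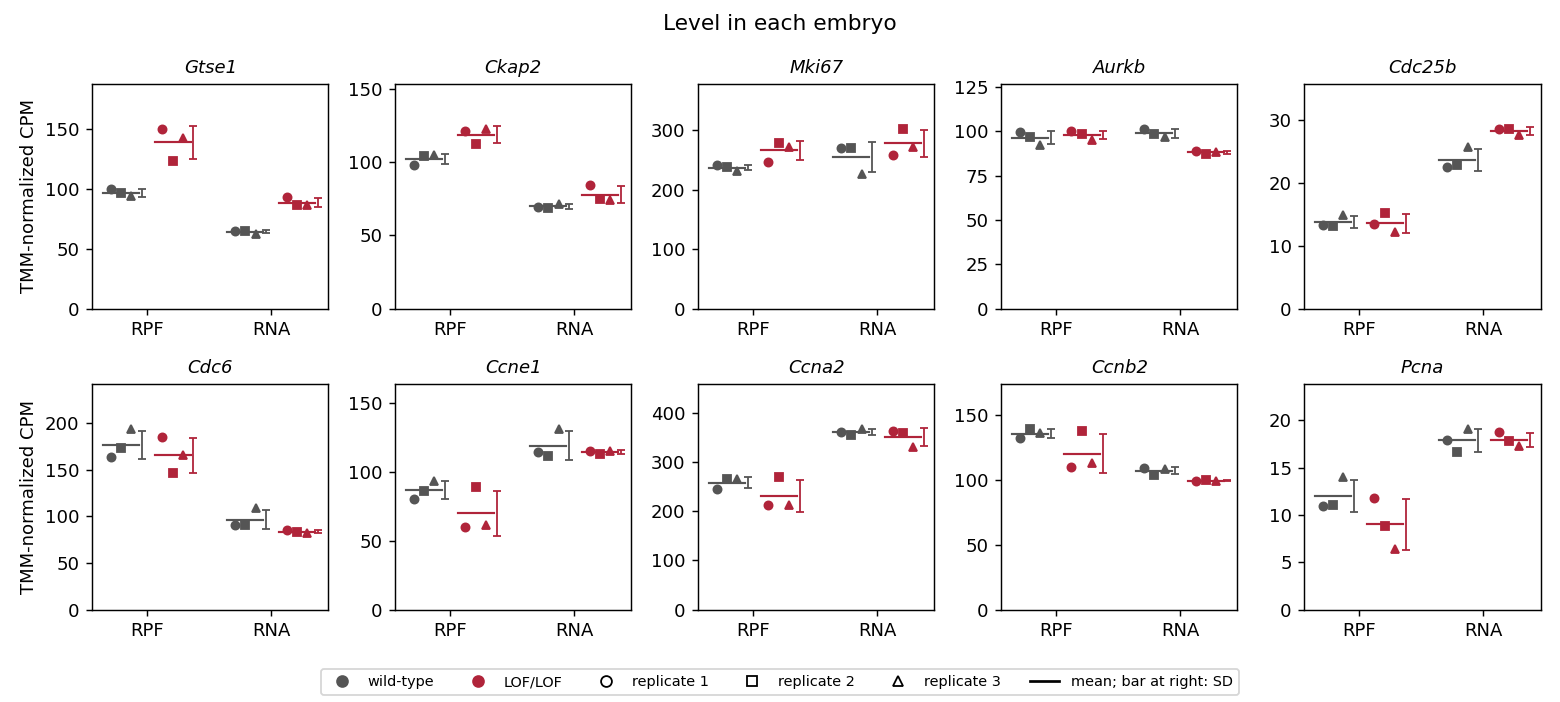
RPF and RNA level (TMM-normalized CPM) of 10 genes in each embryo, with the mean and SD of each genotype; marker shapes give the replicate number. Gtse1 is higher in every LOF/LOF embryo in both measures, Aurkb is lower in RNA only, and for Ccne1, Ccna2 and Ccnb2 the RPF of LOF/LOF replicate 2 lies with wild-type.

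No origin licensing gene was called by edgeR. RPF differences of the 6 subunits of the MCM2-7 helicase ran from −0.11 (Mcm6) to 0.03 (Mcm3), and RNA differences from −0.08 (Mcm4) to 0.05 (Mcm2). Mcm7 RPF was 1055, 1044 and 1046 CPM in wild-type and 1089, 940.0 and 988 CPM in LOF/LOF embryos, with overlap (−0.06 ± 0.07 SE). Mcm6 RPF was 697, 701 and 703 CPM in wild-type and 659, 675 and 617 CPM in LOF/LOF embryos, with none (−0.11 ± 0.06 SE, edgeR FDR 0.476). All 8 licensing genes had intervals within 1.5-fold in RPF, RNA and TE. Cdc6, which loads the helicase, had RNA of 90.5, 90.7 and 109 CPM in wild-type and 85.4, 83.5 and 82.0 CPM in LOF/LOF embryos, all lower, without passing (−0.21 ± 0.07 SE, edgeR FDR 0.168). Its RPF overlapped (−0.09 ± 0.09 SE), and its partner Cdt1 had −0.03 in RPF and −0.01 in RNA.

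Among the genes of nucleotide supply and the sliding clamp none was called by edgeR. Rrm2 RPF was 924, 964 and 957 CPM in wild-type and 1052, 877 and 1009.6 CPM in LOF/LOF embryos (0.05 ± 0.07 SE). The LOF/LOF embryos spread around the wild-type ones. Its RNA was lower in each LOF/LOF embryo without passing (504, 516 and 554 against 490.2, 491 and 481 CPM; −0.11 ± 0.05 SE, edgeR FDR 0.323). The large subunit Rrm1, the thymidine kinase Tk1 and Tyms had RPF differences of −0.07, 0.02 and 0.08. With limma-voom and sva Rrm1 RPF was called lower (−0.12, FDR 0.0579). That was the only call in 14 alternative fits, over which Rrm1 ran from −0.22 to 0.02 in RPF.

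Pcna (ENSMUST00000028817.6, 6 exons, chr2:132249162-132253314, minus strand), the clamp that holds polymerases on DNA, had the largest RPF decrease of the set in size. RPF was 11.0, 11.0 and 14.0 CPM in wild-type and 11.8, 8.84 and 6.37 CPM in LOF/LOF embryos, with LOF/LOF replicate 1 inside the wild-type range. The difference did not pass (−0.44 ± 0.21 SE, edgeR FDR 0.379). RNA was 17.9, 16.7 and 19.0 CPM in wild-type and 18.7, 17.8 and 17.3 CPM in LOF/LOF embryos (0.01 ± 0.08 SE). The Pcna value is uncertain for another reason: 75.6% of the 30-base stretches of its coding sequence also occur in the listed pseudogene Pcna-ps2, which held almost no counts, and how reads that match both were assigned is not given in the sources used here. Its RPF level of 16.5 CPM per kb stood well below the 128 of Tk1. For Tyms, 34.5% of the stretches were shared with Tyms-ps; the other 49 genes shared none with another listed transcript.

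Of the transcription factors, E2f7 was the highest. Its RPF was 53.8, 48.9 and 50.9 CPM in wild-type and 51.2, 44.8 and 50.6 CPM in LOF/LOF embryos, with overlap (−0.07 ± 0.09 SE). Foxm1 and Mybl2 had RPF differences of 0.02 and −0.08 and RNA differences of 0.09 and −0.03. E2f1 was too thin for a tight statement, with −0.00 ± 0.23 SE in RPF (95% interval −0.51 to 0.51).

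Summed over each wave, the embryos overlapped in RPF. The G1/S genes took 7358 to 7571 CPM of the RPF library in wild-type and 6918 to 7477 CPM in LOF/LOF embryos, and the G2/M genes 8150 to 8609 CPM and 8232 to 8841 CPM. In RNA the G1/S genes took 4267 to 4480.0 CPM in wild-type and 4149 to 4271 CPM in LOF/LOF embryos, and the G2/M genes 5703 to 6053 CPM and 5814 to 6054 CPM. The RNA sums of the G1/S genes met only at the edge, the highest LOF/LOF embryo (4271 CPM) being just above the lowest wild-type one (4267 CPM). Taken gene by gene, the median RPF deviation of the G1/S genes from the wild-type mean was −0.03, 0.00 and 0.03 in wild-type and 0.02, −0.09 and −0.05 in LOF/LOF embryos, and that of the G2/M genes 0.01, 0.03 and −0.02 and 0.06, −0.01 and 0.02. In RNA the G1/S medians were −0.03, −0.03 and 0.05 in wild-type and −0.04, −0.04 and −0.03 in LOF/LOF embryos. All 3 LOF/LOF embryos lay just below the lowest wild-type embryo in this measure. By direction, 15 of 20 G1/S genes were lower in RPF and 23 of 31 G2/M genes were higher. Over all tested transcripts 6177 were lower and 6399 higher in RPF. In RNA, 13 G1/S genes were lower and 7 higher, and 17 G2/M genes were lower and 14 higher. Of 30 further G1/S genes, 15 were lower and 15 higher in RPF, and of 32 further G2/M genes 13 were lower and 19 higher. Genes of a wave share embryos and regulators, so these counts are not independent and were not tested.

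**Figure D4:**
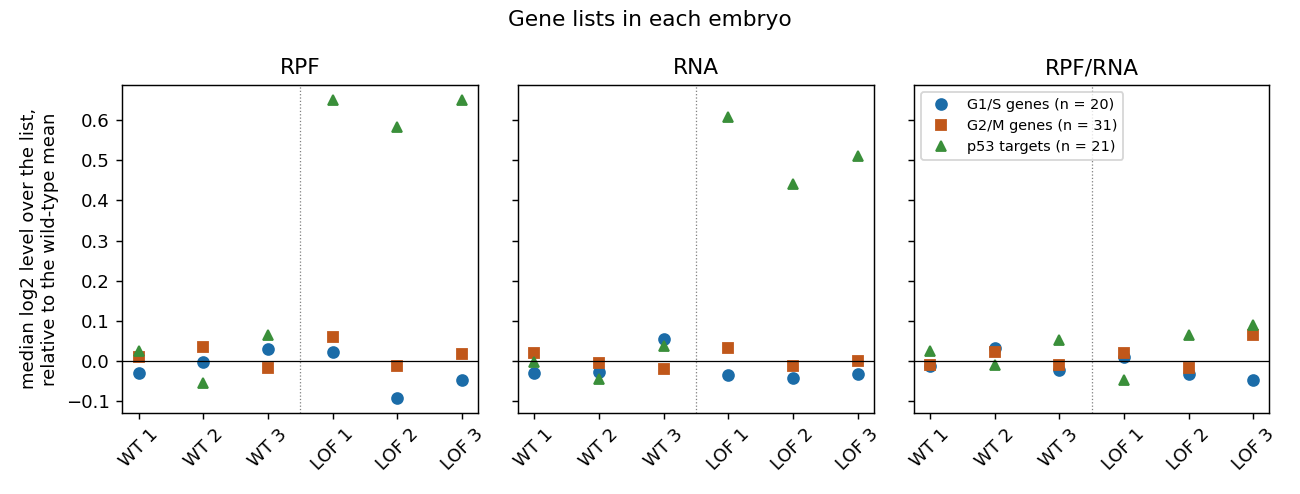
Median log2 level of the 20 G1/S genes, the 31 G2/M genes and the 21 tested p53 targets in each embryo, relative to the wild-type mean, for RPF, RNA and RPF/RNA. In RPF the p53 targets lie at 0.65, 0.58 and 0.65 in the LOF/LOF embryos, while both cell cycle lists stay between −0.09 and 0.06.

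The p53 targets of the same libraries did rise, in a list chosen with earlier results of these data known. Of 24 listed targets, 21 were tested (Dglucy, Fas and Gdf15 were too low). By edgeR, 11 were called higher in RPF and 16 in RNA, and none was called lower. Over all tested transcripts, 1.05% were called higher in RPF and 1.77% in RNA. Their median log2 fold change was 0.57 in RPF and 0.52 in RNA. In single embryos the median RPF deviation was 0.02, −0.05 and 0.06 in wild-type and 0.65, 0.58 and 0.65 in LOF/LOF embryos, so that it did not overlap, and the LOF/LOF embryos lay close together. In RPF, 5 targets were called without wild-type replicate 1, where 12 of all tested transcripts were (0.0962%), and 4 without wild-type replicate 2, where 4 of all were (0.0321%).

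Cdkn1a, the p21 inhibitor, had RPF of 8.501, 6.09 and 7.71 CPM in wild-type and 32.8, 22.0 and 23.7 CPM in LOF/LOF embryos. It rose 3.46-fold in RPF (log2 1.79 ± 0.18 SE, edgeR FDR 0.00237) and 3.05-fold in RNA (1.61 ± 0.14 SE, edgeR FDR 0.000743). Its RNA was 7.86 to 8.93 CPM in LOF/LOF embryos. Ccng1 (cyclin G1), the death receptor Eda2r and the Akt inhibitor Phlda3 rose by 1.58, 2.82 and 1.83 in RPF and by 1.88, 2.37 and 1.82 in RNA on the log2 scale. Mdm2, the ubiquitin ligase that limits p53, was higher in every LOF/LOF embryo, passing in RNA (0.17 ± 0.05 SE, edgeR FDR 0.0858, a call lost without any 1 of the 6 embryos, at FDR up to 0.307) and not in RPF (0.41 ± 0.10 SE, edgeR FDR 0.104; 0.0686 without LOF/LOF replicate 2). Trp53 itself was higher in every LOF/LOF embryo without passing (RPF 0.20 ± 0.07 SE, edgeR FDR 0.210, and 0.0623 without LOF/LOF replicate 2; RNA 0.15 ± 0.05 SE, edgeR FDR 0.142). RPF of both genes was called higher with limma-voom and sva.

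**Figure D5:**
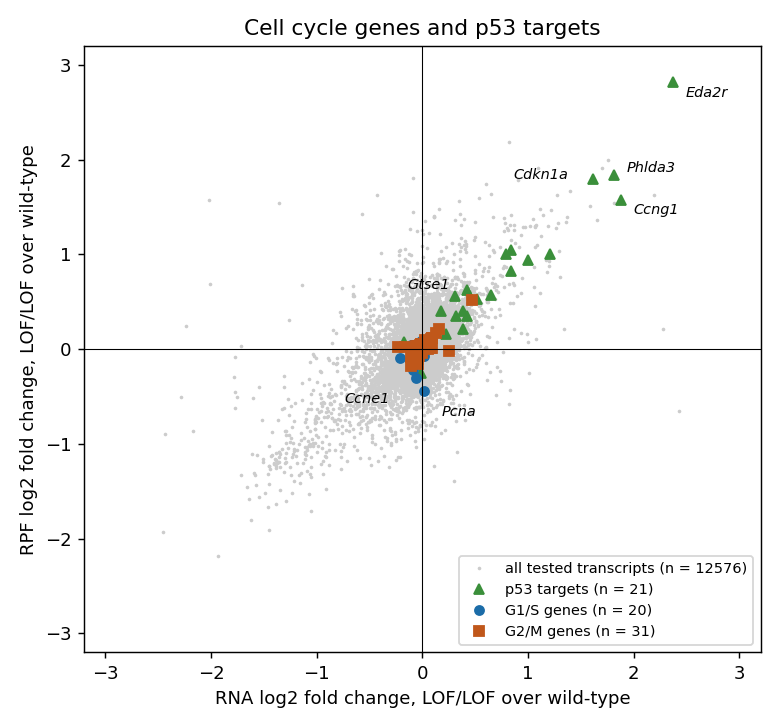
RPF against RNA log2 fold change (LOF/LOF over wild-type) for all 12576 tested transcripts, with the p53 targets and both cell cycle lists marked. The p53 targets reach from Rrm2b at −0.25 to Eda2r at 2.82 in RPF, while most cell cycle genes lie close to 0 and Gtse1 (0.52 in RPF, 0.47 in RNA) stands out upward and Pcna (−0.44 in RPF) downward.

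Among other regulators of division, none was called by edgeR. Of the remaining tested Cdk inhibitors, Cdkn1b (p27) had −0.25 ± 0.12 SE in RPF (edgeR FDR 0.407), and Cdkn1c (p57) had 0.44 ± 0.21 SE (edgeR FDR 0.404), with RPF of 138, 144 and 150.3 CPM in wild-type and 123, 183 and 277 CPM in LOF/LOF embryos. The LOF/LOF embryos spread widely, and without replicate 1 Cdkn1c RPF was called higher (0.67, edgeR FDR 0.0831), as it was with limma-voom and sva (0.36, FDR 0.00104). These were the only 2 calls in 14 alternative fits, over which Cdkn1c ran from 0.09 to 0.67 in RPF. Cdkn2a was thinly covered, with 5 to 21 RPF counts and 1 to 29 RNA counts per library (RPF −0.63 ± 0.48 SE, edgeR FDR 0.615; RNA −1.31 ± 0.59 SE, edgeR FDR 0.294), and its embryos overlapped, and Cdkn2d had −0.06 in RPF. The D-type cyclins Ccnd1, Ccnd2 and Ccnd3, which begin G1 progression, had RPF differences of −0.16, −0.14 and −0.14 (edgeR FDR 0.445, 0.476 and 0.51) with RNA differences of 0.00, 0.06 and 0.00, and 0 of 18 G1 cyclins, Cdks, pocket proteins and other E2Fs were called by edgeR, DESeq2 or limma-voom (at an unadjusted p under 0.05 in edgeR, 0 in RPF, 5 in RNA, 2 of them higher, and 4 in TE, 2 of them higher). In RNA and TE these are larger shares than the 17.0% and 4.44% of all transcripts, a difference that was not tested. With limma-voom and sva, 3 of the 18 were called in RPF, where 10.4% of all were: Ccnd1 (−0.17, FDR 0.0659), Ccnd2 (−0.15, FDR 0.0504) and Cdk2. Of 30 further G1/S genes, 0 were called by the same tools (at an unadjusted p under 0.05 in edgeR, 2 in RPF, 4 in RNA and 0 in TE); without LOF/LOF replicate 2, 3 were called in RPF, where 11.6% of all were.

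Of 32 further G2/M genes, 1 was called by edgeR, and upward, where 2.19% of all tested transcripts were called in RPF and 5.02% in RNA. Psrc1, a spindle protein that is likewise a known p53 target (ENSMUST00000102629.7, chr3:108383859-108388231, plus strand), had RPF of 39.1, 39.3 and 36.4 CPM in wild-type and 61.7, 47.4 and 61.7 CPM in LOF/LOF embryos. Its RNA was 33.9, 35.4 and 32.9 CPM in wild-type and 49.2, 43.3 and 47.8 CPM in LOF/LOF embryos. It rose in both (RPF 0.57 ± 0.11 SE, edgeR FDR 0.0481; RNA 0.45 ± 0.07 SE, edgeR FDR 0.0173), with no overlap and with replicate 2 again the lowest of the LOF/LOF embryos. The RPF call was kept in 9 and the RNA call in 13 of 14 alternative fits; RPF lost it without any 1 wild-type embryo or without LOF/LOF replicate 3 (FDR 0.137 to 0.255), and both lost it with Y-linked level as a covariate. The log2 fold change of Psrc1 over the 14 fits ran from 0.35 to 0.69 in RPF and from 0.35 to 0.51 in RNA. Without LOF/LOF replicate 2, 7 of the 32 were called in RPF, where 11.6% of all were, and with limma-voom and sva 6, where 10.4% of all were. The 2 cell cycle genes called higher in both measures, Gtse1 and Psrc1, are genes with a known p53 response, which was noted after their values were seen.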

How the data were processed

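RPF and RNA libraries of 6 single E8.5 embryos were compared. For the deposited table of counts, the authors cleaned reads with UMI-tools, FASTX-Toolkit and cutadapt, set aside those that Bowtie2 placed on rRNA, tRNA or snRNA, and aligned the rest to canonical GENCODE transcripts of GRCm38; after removal of PCR duplicates by molecular identifier, RPF was counted by A site in coding sequences, less the first 15 and last 5 codons, and RNA over whole transcripts. Genes were named through GENCODE (GRCm38), which matched 21976 of 22467 identifiers in the same version and 477 in another.

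Transcripts above 0.75 CPM in at least 3 RPF libraries (12576) were normalized by TMM, RPF and RNA apart, and tested with edgeR 4.0.16 (quasi-likelihood, R 4.3.3). TE was the interaction of genotype and library over 12 libraries. Calls required a Benjamini-Hochberg FDR under 0.1 over all tested transcripts. The study used voom, limma, sva and locfdr; edgeR replaced them here, with DESeq2 1.42.0, limma 3.58.1 and sva 3.50.0 as alternatives. Levels are TMM-normalized CPM, summed levels CPM of the library total. RPF and RNA of the same embryo deviated together (r 0.191 to 0.403 across transcripts), and the pairing comes from the shared lysate; the fit with the embryo as a block is an alternative. Only the main edgeR fit was run on simulated counts, which were drawn for each library on its own. The simulation held no pairing of libraries by embryo, and the alternative fits were not run on it. Litters are not given in the labels, so litter could not be separated from genotype. The p-values set the genotype difference against the spread between these embryos. The genes, lists and tests were chosen with earlier results of these data known. Named in full were called genes, those with the lowest unadjusted p, and the most translated gene of each role. No column of another sample was used.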

Additional observations from a re-analysis of the deposited data

How the results depend on the processing

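Of 154 counts and medians recomputed over 15 alternatives, 125 stayed within 1.5 times the count or 1 SD of the median, and 29 moved; of 3474 values of single genes, 3107 kept their direction and side of the threshold, 73 lost a call, 33 gained one, 261 that were not called changed sign and 0 reversed a call. The count of members called in RPF (1) became 5 with sva and 0 with Y-linked level as a covariate, and ran from 0 to 6 when 1 embryo was left out: 6 without LOF/LOF replicate 2, where 11.6% of all transcripts were called, and 0 without wild-type replicate 1 or 2 or LOF/LOF replicate 3, where 0.0962%, 0.0321% and 0.322% were. In RNA it fell from 2 to 1, Gtse1, with DESeq2, limma-voom, sva, RLE size factors, no filter or the Y-linked covariate, and to 1 without any 1 embryo. In TE it was 0 throughout. The p53 targets called fell from 11 to 7 in RPF and from 16 to 8 in RNA with the Y-linked covariate, where 0.175% and 0.278% of all transcripts were called, and ran from 4 to 14 and from 12 to 15 without 1 embryo. With that covariate the G2/M median was −0.0120 in RPF and −0.0279 in TE. Without 1 embryo, the G2/M median ran from 0.00258 to 0.0708 in RPF and from −0.0174 to 0.0259 in RNA, and the G1/S median from −0.0759 to −0.0142 in RPF, from −0.0457 to −0.00528 in RNA and from −0.0511 to 0.0293 in TE. The cause of these shifts was not tested.

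With a replicate block, 1 member was called in RPF and 1 in RNA, and 12 and 15 p53 targets; with the embryo as a replicate block, 0 members in TE. Same-numbered embryos of the 2 genotypes did not deviate together (r −0.0852 to 0.0172 in RPF and −0.100 to 0.0819 in RNA), which gave no sign of pairing by number. Whether they shared a litter or a day of preparation was not tested. A stricter filter, a mean of 5 CPM of RPF, left out E2f1. Counting error limits E2f1, at 25 RPF counts in its lowest library, most.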
